A study of Oryctolagus cuniculus with 18 samples.

Results

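Toll-like receptor 4 (TLR4), tumor necrosis factor (TNF) and the interleukin 1 genes IL1A and IL1B are 4 of the 84 genes of interest (GOIs) on the rabbit wound healing PCR array. They were taken by their gene symbols in the deposited tables, in all 18 rabbits. The control group held 9 male New Zealand White rabbits on normal chow, without surgery. The atherosclerotic group held 9 age-matched males of the same strain whose aorta was denuded with a balloon catheter. These rabbits ate a diet with 0.30% cholesterol and, after 8 weeks, a maintenance diet with 0.15% cholesterol for the remaining 12 weeks, so diet and injury always occur together. RNA came from the abdominal aorta, and the labels describe the lesions as stable and advanced, a model in which plaques rarely rupture. Each gene was read in 1 well per rabbit, and PCR error is therefore part of the variation among rabbits.

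TLR4 is the cell surface receptor of innate immunity that recognizes bacterial lipopolysaccharide and several products of damaged tissue. Through the adaptor MyD88 it activates NF-kappaB and the MAP kinases, which switch on the genes of TNF, IL1A and IL1B in macrophages and vascular cells. TNF and interleukin 1 act on their own receptors, which use much of the same signaling and maintain inflammation of the vessel wall. IL1B is made as a precursor that the inflammasome must cleave, while IL1A is active without cleavage. A transcript level therefore does not give the amount of active cytokine.

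Expression is given as a ratio, 2 to the power of the reference Ct minus the Ct of the gene, both from 1 rabbit, and differences are on the log2 scale, where 1 unit is a doubling. Ct is the PCR cycle at which a well crosses the detection threshold, and a well at Ct 35 or later, or without a Ct, gives only an upper limit on the ratio. The reference level ranged from 22.00 to 22.82 cycles in 8 control rabbits and was 24.53 in control rabbit 3. It ranged from 22.65 to 23.65 cycles in 8 atherosclerotic rabbits and was 19.79 in atherosclerotic rabbit 20. A late reference level raises the limit, so rabbit 3 has the highest limits, and rabbit 20 can show the lowest ratios. Of the 1512 GOI wells, 150 were at the limit, while the 4 genes differed widely: all 18 wells of TLR4 were measured, 17 of IL1B, 9 of TNF and 2 of IL1A.

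Of the 4 genes, TLR4 and TNF were higher in the atherosclerotic group at an adjusted p under 0.05 (limma, Benjamini-Hochberg adjustment over the 84 GOIs), and IL1A and IL1B did not pass. None was lower. Of all 84 GOIs, 60.7% passed this threshold in either direction and 38.1% passed it as higher, so 2 of 4 genes is close to the share of the array. Groups without any overlap, with the atherosclerotic rabbits higher, were found for TLR4 but not for TNF, IL1A or IL1B, against 13.1% of the GOIs.

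TLR4 was measured in every rabbit. In the control group the ratio of TLR4 had a lowest value of 0.00117 in rabbit 13, a median of 0.00647 and a highest value of 0.0131 in rabbit 21. In the atherosclerotic group it had a lowest value of 0.115 in rabbit 20, a median of 0.207 and a highest value of 0.265 in rabbit 10. Every atherosclerotic rabbit lay above every control rabbit, rabbits 3 and 20 included. The difference of TLR4 was 5.30 on the log2 scale with a standard error of 0.41 (limma, adjusted p = 1.5e-09), a 39.5-fold rise with a 95% interval of 20.9-fold to 74.9-fold from the exact permutation test. With Ct held at 35 it was the largest difference of the array, and without rabbits 3 and 20 it was 5.53.

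The rise of TLR4 was already visible before any reference gene was used. Its raw Ct lay between 28.72 and 31.96 cycles in the control group and between 22.91 and 25.74 in the atherosclerotic group, a mean shift of 5.26 cycles (exact two-sided permutation test, p = 4.1e-05, the smallest that 9 rabbits against 9 allow). The receptor also varied within each group. The control rabbits spanned 11.2-fold in TLR4 and the atherosclerotic rabbits 2.30-fold, with SDs of 1.23 and 0.41 on the log2 scale. The difference between these spreads was not tested.

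TNF crossed the limit between the groups. In the control group no well had a Ct below 35: 8 wells had a Ct from 35.05 to 39.15 and 1 had none. In the atherosclerotic group all 9 wells had a Ct below 35, from 31.29 to 33.63. The number of rabbits with a Ct below 35, 9 of 9 against 0 of 9, differed in Fisher's exact test (two-sided p = 4.1e-05).

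The ratio of TNF in the atherosclerotic group had a lowest value of 0.000346 in rabbit 20, a median of 0.000993 and a highest value of 0.00328 in rabbit 12. The control values are limits, from 0.000122 to 0.000215 in 8 rabbits and 0.000707 in rabbit 3. With the control limits taken as values, the fitted fold of TNF was 5.05 with a 95% interval of 2.90 to 8.73 from the exact permutation test, a log2 difference of 2.34 with a standard error of 0.37 (limma, adjusted p = 1.5e-05). Control levels below their limits would make this fold larger on the deposited reference level. Without rabbits 3 and 20 the log2 difference of TNF was 2.76 and the fold 6.76. The limit of rabbit 3 lay above the TNF of atherosclerotic rabbits 18 and 20, so 7 of the 9 atherosclerotic rabbits lay above every control limit. The size of the rise rests on how late wells are read. It was 26.9-fold with late Ct values kept and the undetermined well at 37 cycles, and 1.55-fold when all 18 rabbits were held at the limit of rabbit 3 (adjusted p = 0.018 from limma).

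IL1B was low in both groups and varied most among the control rabbits. Its ratio in the control group had a lowest value of 0.000142 in rabbit 13, the only well at the limit, a median of 0.000558 and a highest value of 0.0502 in rabbit 3. Rabbits 21 and 15 followed with 0.00627 and 0.00265, and the other 6 control rabbits lay at or below 0.000639. In the atherosclerotic group the ratio of IL1B had a lowest value of 0.000779, a median of 0.00231 and a highest value of 0.00512. The 9 atherosclerotic rabbits thus lay above those 6 control rabbits and below rabbits 3 and 21.

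The difference of IL1B between the groups was 1.24 on the log2 scale with a standard error of 0.90 (limma, adjusted p = 0.23), within the variation among rabbits. On the ratio itself the direction turned, since the mean ratio of IL1B was 0.00681 in the control and 0.00268 in the atherosclerotic group (limma, adjusted p = 0.57). This control mean includes the 0.0502 of rabbit 3, and the medians, 0.000558 and 0.00231, kept the direction of the log2 difference. With array weights the log2 difference was 2.0 and passed (limma, adjusted p = 0.012). Without weights the 95% interval of the difference from the exact permutation test reached from -0.85 to 3.23, so a 9.40-fold rise and a 0.56-fold level both remained possible. The raw Ct of IL1B was earlier by 1.22 cycles in the atherosclerotic group (exact two-sided permutation test, p = 0.21). Control rabbit 3 decided this call: without it the difference of IL1B was 1.95 (adjusted p = 0.013 from limma), and without rabbits 3 and 20 it was 1.93 (adjusted p = 0.020 from limma). The raw Ct of IL1B in rabbit 3, 28.85 cycles, was the earliest of the control group, while its reference level was the latest.

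IL1A was at the limit in most wells. No control rabbit had a Ct below 35, and 2 atherosclerotic rabbits did, rabbit 2 with a Ct of 34.46 and rabbit 20 with 33.02 (Fisher's exact test, two-sided p = 0.47). Any Ct at all, late ones included, was recorded in 3 control and 7 atherosclerotic rabbits (Fisher's exact test, two-sided p = 0.15). The ratios of IL1A lay between 0.000122 and 0.000707 in the control group and between 0.000104 and 0.000385 in the atherosclerotic group, and 16 of these 18 values are limits set by the reference level. No fold is given for IL1A, since both groups were at or near the limit, and these wells do not settle whether it changed. The fitted log2 difference of 0.32 (adjusted p = 0.38 from limma) became 0.71 without rabbits 3 and 20 (adjusted p = 0.0031), still a difference mostly between limits. In limma it was 0.87 without LDHA in the reference level (adjusted p = 0.024) and -0.51 without ACTA2 (adjusted p = 0.12). With late Ct values kept and undetermined wells at 40 cycles it was 2.19 (adjusted p = 0.011 from limma). In the RefSeq gene table of the rabbit, IL1A and IL1B lie on the same chromosome with the start of IL37 between them.

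**Figure D1:**
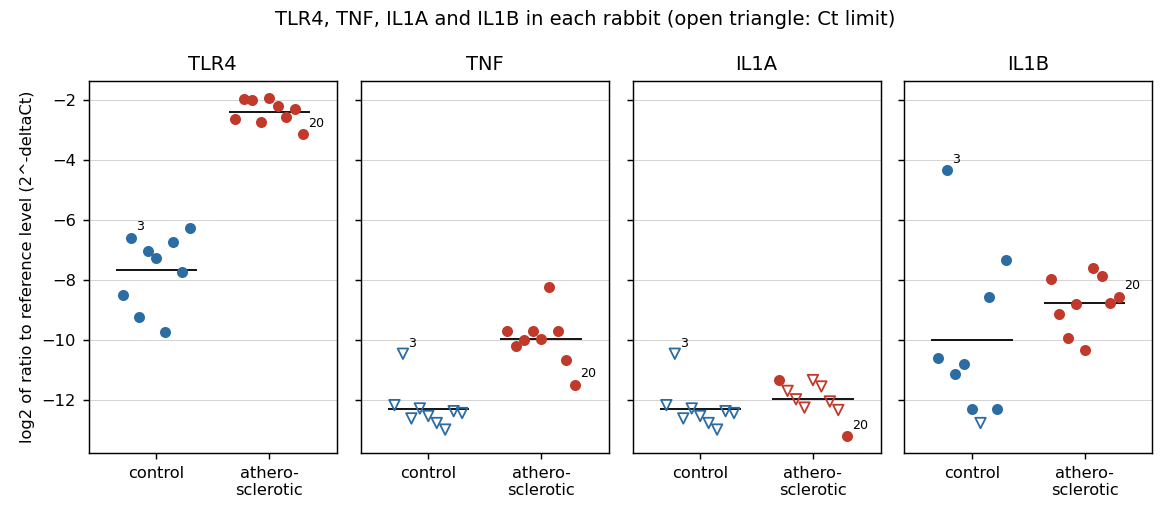
Log2 of the ratio to the reference level (vertical axis) of TLR4, TNF, IL1A and IL1B in 9 control (blue) and 9 atherosclerotic (red) rabbits; filled points are measured, open triangles are upper limits at Ct 35, and lines are means over all points, limits included. The groups are apart for TLR4, all control wells of TNF are limits, 16 of 18 wells of IL1A are limits, and control rabbit 3 is the highest of all for IL1B.

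TLR4 was then compared with the 3 cytokine genes within each rabbit, as the log2 ratio of TLR4 minus that of the cytokine. The reference level cancels in this difference, so neither ACTA2 nor any other reference gene can move it. The efficiency of each assay is unknown, so the value in 1 group is not a comparison of transcript numbers, and only its change between the groups is read. A fold of this change still assumes that each assay doubles its product at every cycle. An exact two-sided permutation test was used, adjusted over TLR4 against each of the other 83 GOIs. TLR4 had risen more than 96.4% of those GOIs at an adjusted p under 0.05, so a rise above a given cytokine is the rule for this receptor and not particular to cytokines.

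TLR4 minus IL1B was the pair with nearly complete measurements. In the control group it had a lowest value of -2.27 in rabbit 3, a median of 2.12 and a highest value of 5.04. In the atherosclerotic group it had a lowest value of 5.32, a median of 6.08 and a highest value of 8.41, so no rabbit of either group overlapped with the other. TLR4 rose 16.7-fold more than IL1B, a log2 difference of 4.06 with an interval from 2.38 to 5.83 (exact permutation p = 4.1e-05, adjusted p = 4.9e-05). Without rabbit 3 this difference was 3.49, the lowest value when each rabbit was left out.

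For TNF the comparison with the receptor depends on the limit. TLR4 minus TNF had a median of 4.64 among control rabbits, from 3.04 to 6.28, and a median of 8.00 among atherosclerotic rabbits, from 6.07 to 8.39. The change of 2.97 (exact permutation p = 0.00012, adjusted p = 0.00014) has an interval from 1.94 to 3.99 and takes the TNF limits of all 9 control rabbits as values, and control levels below them would make it smaller. With late Ct values kept and the undetermined well at 40 cycles, TLR4 and TNF differed in their rise by 0.22 (adjusted p = 0.69 from limma), and by 0.56 with that well at 37 cycles (adjusted p = 0.27). Whether TLR4 rose more than TNF was therefore not settled by these wells.

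TLR4 minus IL1A was 4.98 higher in the atherosclerotic group (exact permutation p = 4.1e-05, adjusted p = 4.9e-05). Here IL1A was a limit in 9 control and 7 atherosclerotic rabbits, so the value mostly restates the rise of TLR4 and bounds nothing about IL1A. It was 3.11 with late Ct values kept and undetermined wells at 40 cycles.

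**Figure D2:**
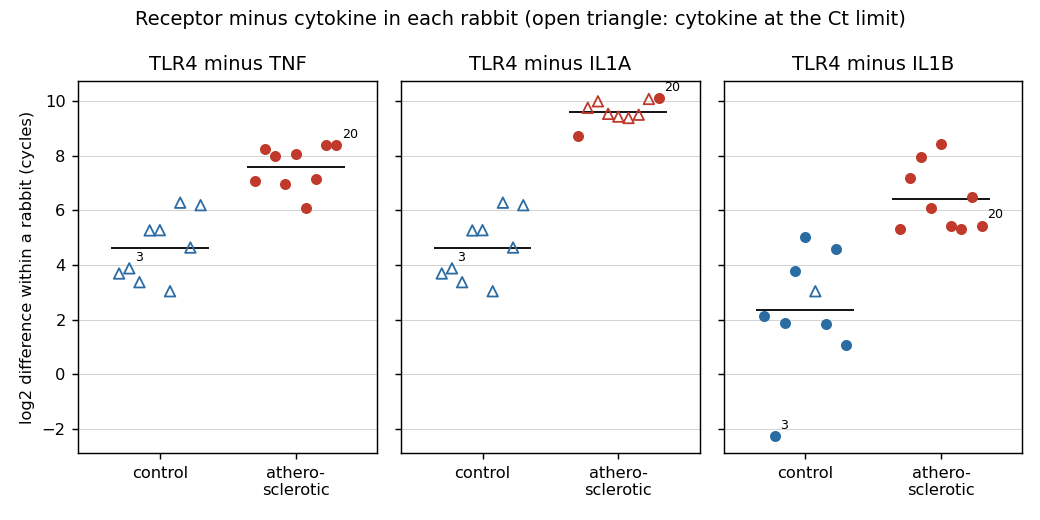
Log2 ratio of TLR4 minus that of TNF, IL1A or IL1B in each rabbit (vertical axis, in cycles) for 9 control (blue) and 9 atherosclerotic (red) rabbits; open triangles are lower limits because the cytokine was at Ct 35, and lines are means. The groups are apart for IL1B, from 5.32 upwards in the atherosclerotic group, whereas all 9 control values for TNF and for IL1A are limits.

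The cytokine genes were also set against each other, with IL1B as the base and adjustment over the other 83 GOIs, of which 20.5% differed from IL1B in their change by the exact test. IL1B minus TNF changed by -1.09 (exact permutation p = 0.22, adjusted p = 0.37), with an interval from -2.92 to 0.73. The control wells of TNF are upper limits, so the fall of this difference could be larger: with late Ct values kept it was -3.82 with undetermined wells at 40 cycles and -3.49 with them at 37 cycles (adjusted p = 0.0015 and 0.0042 from limma). The exact test was not run in these settings. IL1B minus IL1A changed by 0.92 (exact permutation p = 0.30, adjusted p = 0.47), with an interval from -0.94 to 2.79. It was -0.93 with late Ct values kept and undetermined wells at 40 cycles (adjusted p = 0.47 from limma).

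Whether rabbits with more receptor also had more cytokine was asked within each group, because the groups lie apart. Both ratios of a rabbit share its reference level, and 4 relations were computed, the last 2 of them chosen after the values were seen. Over the 9 atherosclerotic rabbits TLR4 and TNF had r = 0.37 (exact permutation p = 0.33, adjusted p = 0.36) and rho = -0.03 (exact permutation p = 0.95, adjusted p = 0.95). Without rabbits 8 and 20, r was -0.13. TLR4 and IL1B had r = -0.53 (exact permutation p = 0.15, adjusted p = 0.30) and rho = -0.53 (exact permutation p = 0.15, adjusted p = 0.30), and r = -0.78 without rabbits 8 and 20. The sign depended on the reference: as ratios to GAPDH alone, r of TLR4 and IL1B was 0.38, and as ratios to LOC100346936 alone it was -0.50. For TLR4 and TNF r was 0.66 as ratios to GAPDH alone (exact permutation p = 0.055, adjusted p = 0.089) and -0.52 as ratios to LOC100346936 alone.

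TNF and IL1B in the atherosclerotic group had r = 0.35 (exact permutation p = 0.36, adjusted p = 0.36) and rho = 0.38 (exact permutation p = 0.31, adjusted p = 0.42), and r = 0.27 without rabbits 12 and 20. As ratios to GAPDH alone r was 0.63 and rho 0.75 (exact permutation p = 0.025 for rho, adjusted p = 0.051), and as ratios to LOC100346936 alone r was 0.09. In the control group TLR4 and IL1B had r = 0.66 (exact permutation p = 0.049, adjusted p = 0.20) and rho = 0.80 (exact permutation p = 0.014, adjusted p = 0.055). The limit of rabbit 13 was the lowest IL1B value, so its rank does not depend on the limit. Without rabbits 7 and 13, r was 0.65, and without rabbit 3 it was 0.67. As ratios to the deposited reference level, none of the 4 relations passed the threshold after adjustment. As ratios to GAPDH alone, rho of TLR4 and IL1B in the control group was 0.83 and passed (exact permutation p = 0.0083, adjusted p = 0.033), while r was 0.65 (exact permutation p = 0.049, adjusted p = 0.089). As ratios to LOC100346936 alone this relation did not pass (rho = 0.75, exact permutation adjusted p = 0.10). On the deposited reference level rho was 0.74 without rabbit 3 and 0.75 without rabbits 7 and 13 (exact permutation adjusted p = 0.18 for each). Rabbits were not left out on the ratios to GAPDH, so the result on that scale was not checked in this way.

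**Figure D3:**
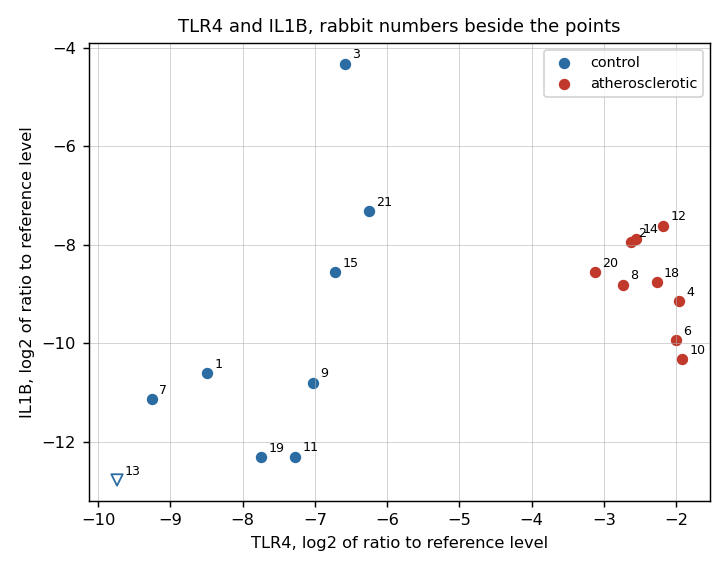
IL1B (vertical axis) against TLR4 (horizontal axis), both as log2 of the ratio to the reference level, in 9 control (blue) and 9 atherosclerotic (red) rabbits with rabbit numbers; the open triangle is an upper limit of IL1B. Control rabbits 3, 15 and 21 hold the highest ratios of both TLR4 and IL1B in their group, rabbit 3 on a late reference level. All atherosclerotic rabbits lie far to the right at IL1B values between those of the control rabbits.

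The reference genes set the scale of all 4 genes. The deposited reference level is made from ACTA2, ACTB, GAPDH, LDHA and LOC100346936. ACTA2, the actin of smooth muscle, had a median ratio of 13.5 in the control group and of 1.77 in the atherosclerotic group. Over 8 other reference levels the rise of TLR4 lay between 22.3-fold without ACTA2 and 57.9-fold without LDHA, with every adjusted p at or below 2.6e-08 in limma. The fitted fold of TNF, with control limits taken as values, lay between 2.85-fold and 7.39-fold (adjusted p at most 0.00073 in limma). IL1B lay between 1.33-fold and 3.46-fold and passed under none of them (lowest adjusted p = 0.081 in limma). The median log2 difference of all GOIs moved in the same settings, by -0.82 without ACTA2 and by 0.55 without LDHA, since another reference level moves all genes of a rabbit by the same amount.

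**Figure D4:**
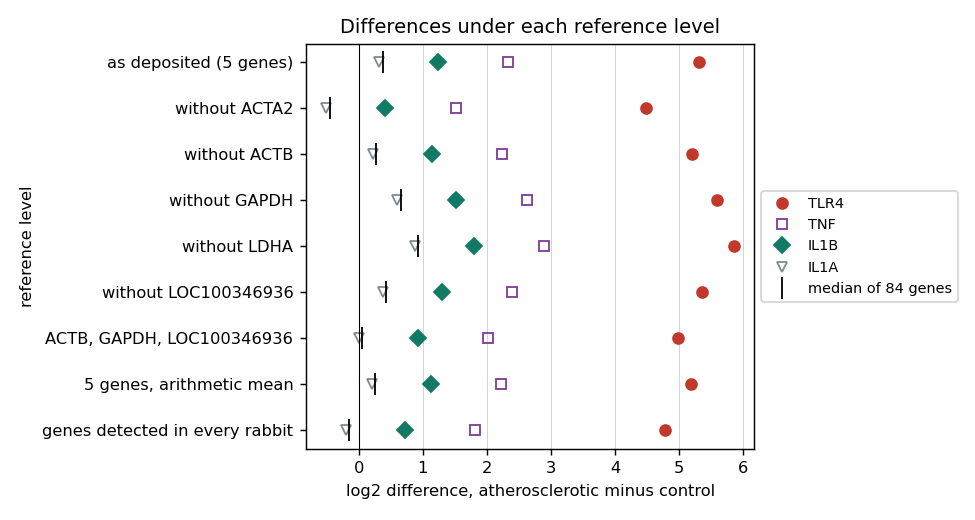
Log2 difference, atherosclerotic minus control (horizontal axis), of TLR4, TNF, IL1B and IL1A under the deposited reference level and 8 others (vertical axis); bars mark the median of the 84 GOIs, open squares have all control wells at the limit and open triangles values set mostly by limits. All symbols shift together, TLR4 stays between 4.48 and 5.85, and IL1A changes sign.

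Macrophages are a main source of TNF and IL1B in plaques, but none of the 7 macrophage markers listed for this check (CD68, CD14, CSF1R, ITGAM, CD163, MRC1 and ADGRE1) was on the array, and the study's custom array was not analysed here. The same held for the 3 endothelial and the 2 leukocyte markers. Of 5 T cell markers, 3 were on the array (CD40LG, IFNG and IL2), with no well at the limit. Their summed ratio ranged from 0.0796 to 0.147 in the control group and from 0.0647 to 0.274 in the atherosclerotic group. This sum is mostly IFNG, which differed by -0.10 on the log2 scale (adjusted p = 0.74 from limma), while CD40LG rose by 1.77 (adjusted p = 0.0063) and IL2 fell by 2.05 without overlap (adjusted p = 2.1e-05). Of 5 smooth muscle markers, ACTA2, transgelin (listed as LOC100009332) and ACTC1 were read, with ACTC1 at the limit in 1 control and 7 atherosclerotic wells, and their summed ratio ranged from 25.2 to 36.9 in the control group and from 1.31 to 13.6 in the atherosclerotic group. In whole aorta, more cells that carry TLR4 or TNF and more transcript per cell cannot be told apart, and the part of cell composition in these differences was not tested.

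Other genes of the pathway were read from a list of known targets of TLR4, TNF and interleukin 1 signaling, of which 14 of 22 were on the array. Of these 14, 7 rose, 2 fell and 5 did not pass, and their median log2 difference was 2.28. Of all 84 GOIs, 32 rose, 19 fell and 33 did not pass, with a median of 0.37, so the share of targets that passed was close to that of the array on the deposited reference level. Without LDHA in it 11 targets rose and 1 fell, beside 47 and 10 of the GOIs. Without ACTA2 7 targets rose and 2 fell, beside 22 and 34 of the GOIs. The list was drawn up with earlier results of these data known.

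Among the targets that rose were chemoattractants of leukocytes. CCL2, which draws monocytes, rose by 3.48 on the log2 scale (limma, standard error 0.61, adjusted p = 5.0e-05). CXCL8, which draws neutrophils, rose by 3.61 (limma, standard error 0.71, adjusted p = 0.00016), although only 1 atherosclerotic rabbit lay above every control rabbit. Interleukin 10 (IL10), an anti-inflammatory cytokine, rose by 4.16 and did not overlap between the groups.

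The proteases among the targets rose as well. The collagenase MMP1 and the stromelysin MMP3 were at the limit in all 9 control rabbits, with fitted differences of 4.95 and 2.25, and MMP1 was measured in all 9 atherosclerotic rabbits and MMP3 in 8. The gelatinase MMP9 rose by 4.19, with 3 of 9 control wells measured. PLAU, the urokinase plasminogen activator, rose by 3.37 (limma, standard error 0.25, adjusted p = 7.4e-10) and was measured in every rabbit.

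The targets that fell were tissue factor (F3), the initiator of coagulation, by -2.04 (adjusted p = 6.9e-05 from limma), and the granulocyte growth factor CSF3 by -1.05 (adjusted p = 0.0084 from limma), which was measured in 9 control and 3 atherosclerotic rabbits, the other values being upper limits. IL6, the best known cytokine induced together with TNF and IL1B, differed by 0.91 (adjusted p = 0.13 from limma). The cyclooxygenase PTGS2 differed by 1.03 (adjusted p = 0.13 from limma), the urokinase receptor PLAUR by 2.32 (adjusted p = 0.053 from limma) and CSF2 by 0.42, none of which passed. These calls of targets hold for the deposited reference level, and their number changed without LDHA in it.

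Of 14 listed signal carriers, 6 were on the array, among them MAPK3, STAT3, IL6ST and CTNNB1, and MyD88, the TLR4 partners CD14 and LY96, and the interleukin 1 receptor were not. MAPK3, the MAP kinase ERK1, rose by 1.01 (limma, standard error 0.23, adjusted p = 0.00068). STAT3 differed by -0.01. The median of the 6 carriers was 0.25. These small differences followed the reference level: without LDHA in it 5 carriers rose, as did 47 of the 84 GOIs while 10 fell, and without ACTA2 no carrier rose and 3 fell, while 22 GOIs rose and 34 fell.

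**Figure D5:**
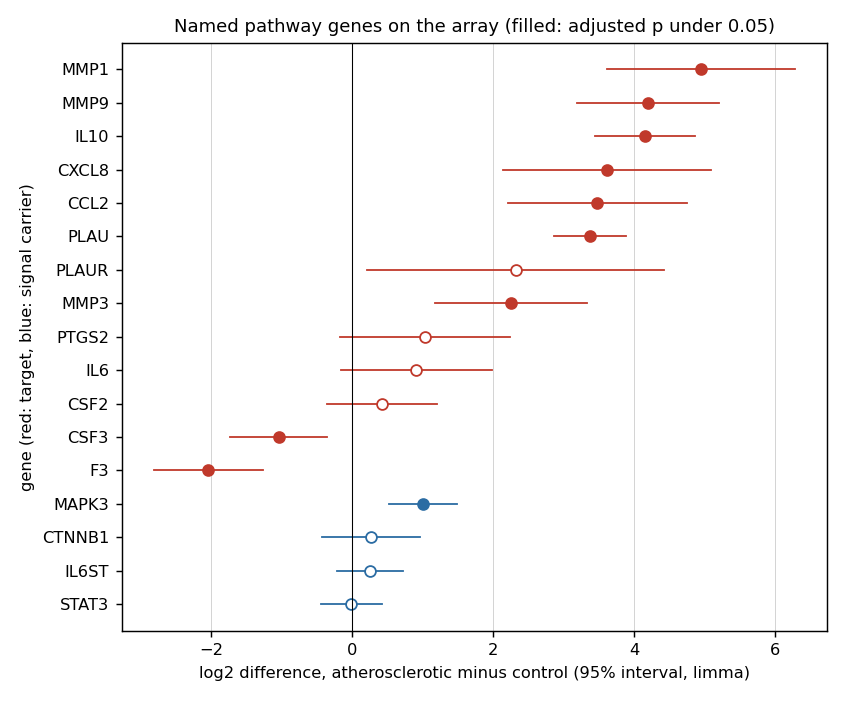
Log2 difference, atherosclerotic minus control (horizontal axis), with the 95% interval of limma, for 13 of the targets (red) and 4 of the signal carriers (blue) on the array; filled points have an adjusted p under 0.05. The targets spread from F3 at -2.04 to MMP1 at 4.95, and MAPK3 is the only filled carrier among those drawn. Limits at Ct 35 enter as values and are not marked. They include all 9 control wells of MMP1 and MMP3, and only 3 control wells of MMP9 and 3 atherosclerotic wells of CSF3 were measured.

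The genes most like TLR4 in their variation within the groups were TIAM1, ITGA4 and ITGA6. The measure was Pearson's r of log2 ratios over the 18 rabbits after the mean of each group was subtracted, among 62 other GOIs measured in every rabbit, and all these ratios share the reference level. TIAM1, an activator of the small GTPase Rac, had r = 0.74, the integrin subunit ITGA4 had r = 0.73 and ITGA6 had r = 0.70. The likeness of TIAM1 was present in both groups, with r = 0.79 in the control and 0.82 in the atherosclerotic group, while ITGA6 had 0.85 and -0.35. Without rabbits 3 and 20 the values were 0.77, 0.69 and 0.83. TNF, IL1A and IL1B were not ranked, since some of their wells were limits.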

How the data were processed

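RNA was extracted with TRIzol, transcribed with a first strand kit and read on array plates with a Mx3000P instrument. The authors deposited the raw Ct of every well, a score in PCR cycles, and, for each gene and rabbit, a ratio to the reference level by the deltaCt method in GeneGlobe. Checked against the Ct, the deposited ratio used the geometric mean of 5 reference Ct values, with late or undetermined wells at 35. Another file, the authors' own fold change per gene, was not used.

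Groups came from the sample titles. The log2 of the ratio was compared with limma (version 3.58.1, R 4.3.3) over the 84 GOIs without covariates, with Benjamini-Hochberg adjustment calling an adjusted p under 0.05. The two-sided exact permutation tests ran over all 48620 assignments of rabbits, correlations all pairings (362880 for 9 rabbits), and intervals hold the shifts that the test does not refuse. In differences to TLR4 or IL1B that gene enters every value, which can distort limma's error, so the exact test is printed first. The size of this effect was not tested. The named genes were the 4 genes, the pathway genes that passed (others after their values were seen) and the 3 genes most like each member measured in every rabbit. Some listed genes enter the counts and medians of their lists but are not reported here by name. The members, lists and tests were chosen with earlier results of these data known. The fit and the permutation test were tested on simulated data. The alternatives were other reference levels, treatments of late Ct values, tests and filters, and leaving out rabbits. With 1 well for each gene in a rabbit, no PCR error can be given. All 4 RefSeq accessions of the genes were found in the gene table of mOryCun1.1, used for names and order only. Other tools were scipy 1.17.1, numpy 2.4.6 and pandas 2.3.3 in Python 3.11.15, with plots from matplotlib 3.10.9.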

Additional observations from a re-analysis of the deposited data

Results flagged for a closer look

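Over 18 groups of 9 values of the 4 genes and their differences, 2 held a rabbit far from the others, and chance alone flags about 1 in 20 groups. Both are control rabbit 3, with -10.47 on the log2 scale for TNF and -10.47 for IL1A, against -13.00 to -12.18 in the other 8 control rabbits. The control values of TNF and IL1A are the same limits at Ct 35, so this is 1 pattern seen in both genes, and the reference level of this rabbit was 24.53 cycles against 22.00 to 22.82.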

How the results depend on the processing

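TLR4 and TNF were higher with a p under 0.05 in all 36 alternatives, adjusted except in the methods' test without adjustment, with log2 differences from 4.48 to 5.85 and from 0.63 to 5.08, and so were TLR4 minus IL1B and TLR4 minus IL1A in all 22 of theirs. The number of GOIs changed lay between 46 and 59, and no replicate numbers are shared between the groups. IL1A was -0.51 without ACTA2 and -0.20 against all genes measured in every rabbit. It passed without LDHA (0.87), with late Ct values kept and undetermined wells at 40 cycles (2.19) and without rabbits 3 and 20 together (0.71), and had no value at a common limit. IL1B passed with array weights (2.0) and without rabbits 3 and 20 together (1.93), lay between 0.90 and 1.95 with single rabbits left out (control rabbit 3 gives 1.95), and was -1.34 on the ratio itself in limma and in the methods' test (p from 0.46 to 0.58). TLR4 minus TNF did not pass with late Ct values kept and undetermined wells at 40 (0.22) or 37 cycles (0.56). In these settings IL1B minus TNF passed in limma (-3.82 and -3.49), without an exact test, and at 40 cycles IL1B minus IL1A was -0.93. In the atherosclerotic group, r of TLR4 and TNF was 0.66 as ratios to GAPDH alone, -0.52 as ratios to LOC100346936 alone and -0.13 without rabbits 8 and 20, and r of TLR4 and IL1B was 0.38 as ratios to GAPDH alone. Without LDHA 11 targets rose and 1 fell, and 5 carriers rose, while 47 of the 84 GOIs rose and 10 fell. Without ACTA2 0 carriers rose and 3 fell, while 22 GOIs rose and 34 fell. Another reference level moves all genes of a rabbit by the same amount by construction. Why the reference genes differed among rabbits was not tested, nor why the values moved with the weights or the scale.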

Other observations

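Control rabbits 3, 21 and 15 held the highest IL1B of their group, and the values of related genes in these rabbits are given as a description, chosen after the values were seen and without a test. Their TLR4 ratios were 0.0104, 0.0131 and 0.00950, against at most 0.00767 in the other 6 control rabbits. For rabbit 3 this place rests on its late reference level of 24.53 cycles, which enters all its ratios. Its raw Ct of TLR4, 31.12 cycles, was later than the 29.73, 29.72 and 30.36 of control rabbits 9, 11 and 19. CXCL8 had the same order as IL1B, with 0.0378, 0.00453 and 0.00419, against at most 0.00123 in the others. IL6 was 0.00236, 0.00132 and 0.00217, against at most 0.00124. CCL2 did not follow this pattern in rabbit 3, with 0.00271, while rabbits 21 and 15 had 0.0275 and 0.0163, against at most 0.00419 in the others. PTGS2 was 0.0166, 0.0502 and 0.00950, and rabbit 11 lay above rabbit 15 with 0.00981. CSF3 was highest in rabbit 3 with 0.00166 but low in rabbits 21 and 15, with 0.000337 and 0.000429. Of the atherosclerotic rabbits, 0 lay above rabbit 21 in IL1B and 3 lay above rabbit 15.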
